A study of Mus musculus with 2 samples.

Results

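Complement gene expression was examined in macrophages sorted from the small intestine of wild-type and CCR2-deficient mice. The 7 genes described here were taken by name from the 27998 genes of the count matrices: the 3 subunit genes of C1q (C1qa, C1qb and C1qc), the component gene C3, the properdin gene Cfp, and the anaphylatoxin receptor genes C3ar1 and C5ar1. There was 1 droplet library from wild-type C57BL/6J male mice of a commercial breeder (Janvier), called WT, and 1 from CCR2-/- mice of a Jackson Laboratory strain bred in-house, called CCR2KO. For each library, 3 to 4 intestines were pooled before sorting of live CD45+ cells that were negative for CD3, TCRb, B220, SiglecF, Ly6C and Ly6G and positive for CD11b, MHCII and CD64. CCR2 is the chemokine receptor through which blood monocytes enter tissues, and the comparison asks how intestinal macrophages differ without it. Ages and the sex of the CCR2KO animals were not given in the sources used here, and breeding source and genotype were the same split.

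C1q is the recognition molecule of the classical complement pathway. It is assembled from trimers of its A, B and C chains, and tissue macrophages are a major source of it. C3 is the central component on which the complement pathways converge, properdin stabilises the convertase of the alternative pathway, and C3aR and C5aR1 are the receptors for the small fragments C3a and C5a.

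In GRCm38 (GENCODE M21) all 7 genes were protein-coding genes on the minus strand. The C1q genes lie side by side on chromosome 4 within 18.7 kb, in the order C1qb (ENSMUSG00000036905, 136880129 to 136886187), C1qc (ENSMUSG00000036896, 136889804 to 136893065) and C1qa (ENSMUSG00000036887, 136895917 to 136898803). C3 (ENSMUSG00000024164) spans 57203970 to 57228136 on chromosome 17 and overlaps the microRNA gene Mir6978 on the same strand. Cfp (ENSMUSG00000001128) lies on chromosome X from 20925454 to 20931555, C3ar1 (ENSMUSG00000040552) on chromosome 6 from 122847138 to 122856161, and C5ar1 (ENSMUSG00000049130) on chromosome 7 from 16246743 to 16259540.

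The promoter sequences of C1qb and C1qc are shown because these neighbouring genes stood in different UMI ratios in the libraries. They come from RefSeq (GRCm38.p6), which matched 6 of the 7 genes, and span 300 bases each around the annotated start, at chr4:136886151-136886450 and chr4:136892865-136893164, both on the minus strand. Capitals mark matches on either strand to GCTGAC, a core of the Maf recognition element, or to GAGGAA, a core of PU.1 sites, both factors of macrophages.
C1qb: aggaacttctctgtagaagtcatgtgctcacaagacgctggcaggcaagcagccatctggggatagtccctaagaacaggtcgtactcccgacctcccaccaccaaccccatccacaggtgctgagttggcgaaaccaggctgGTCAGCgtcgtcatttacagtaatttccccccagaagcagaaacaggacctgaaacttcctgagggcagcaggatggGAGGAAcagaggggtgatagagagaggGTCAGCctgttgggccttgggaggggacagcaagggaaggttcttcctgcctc
C1qc: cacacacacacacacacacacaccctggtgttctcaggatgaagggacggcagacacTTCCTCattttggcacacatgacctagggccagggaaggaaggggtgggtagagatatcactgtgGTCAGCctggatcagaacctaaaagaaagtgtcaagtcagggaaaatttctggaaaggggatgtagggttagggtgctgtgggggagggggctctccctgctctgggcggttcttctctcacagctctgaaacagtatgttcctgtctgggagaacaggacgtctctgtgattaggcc
The C1qb sequence held 2 matches to GCTGAC and 1 to GAGGAA, and the C1qc sequence held 1 of each. Of all 32851 promoters of the same length, 15.7% held GCTGAC and 28.3% held GAGGAA on at least 1 strand, and 7.81% held the AP-1 motif TGANTCA, which can share bases with GCTGAC. Among the other members, the Cfp promoter held 2 GAGGAA matches, the C3ar1 promoter held 1 TGANTCA match, and the C3 and C5ar1 promoters held none of the motifs. These matches describe the letters of the windows and show no binding.

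After removal of cells with fewer than 200 genes or more than 10% mitochondrial UMIs (unique molecular identifiers, each standing for 1 captured transcript end), 3016 WT and 2612 CCR2KO cells remained. The WT barcodes carried 2 suffixes, called lanes here, with 2109 and 907 cells. The libraries differed in depth, with a median of 6129 UMIs per WT cell (6185 and 6034 by lane) and 2439 per CCR2KO cell. The lanes shared 5 barcode sequences, WT lane 1 and CCR2KO shared 6, and WT lane 2 and CCR2KO shared 0. Ccr2 was at 331 CPM (UMIs scaled to a library total of 1000000) in WT and at 6.88 CPM, from 50 UMIs, in CCR2KO; which part of the gene is deleted was not given, so these transcript-end counts check the label only in part. All 8 macrophage markers were detected in both libraries, summing to 5111 CPM in WT and 6255 CPM in CCR2KO, and 95.1% and 93.6% of cells were macrophage-like (at least 2 of the 8 genes and fewer than 3 of any list for other cell types). Markers of other cells and of cell stress differed between the libraries. The 6 monocyte genes summed to 772 CPM in WT and 247 CPM in CCR2KO, the 6 fibroblast genes to 27.9 and 245 CPM, the 6 endothelial genes to 54.5 and 204 CPM, the 5 erythroid genes to 762 (1080 and 3.44 by lane) and 7435 CPM, and 12 dissociation stress genes took 0.686% and 2.17% of UMIs. With 1 library per genotype no test of genotype is possible. The values below carry 95% intervals for counting error only (exact Poisson for levels, Clopper-Pearson for shares). The WT lanes give a yardstick within 1 sample, not replicates. Whether they differ by more than technique was not tested.

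The C1q subunits differed in how they stood between the libraries: C1qb and C1qa were lower in CCR2KO, and C1qc was at nearly the same level. C1qa was at 4603 CPM in WT lane 1, 5699 CPM in WT lane 2 and 2919 CPM (2879 to 2958) in CCR2KO. Its CCR2KO level was thus below both lanes, with a log2 ratio of CCR2KO over WT of -0.76. C1qb was at 3863 and 5025 CPM in the WT lanes and at 1678 CPM (1648 to 1708) in CCR2KO. Its log2 ratio was -1.33 (counting interval -1.35 to -1.30), that is a level 2.51-fold higher in WT. C1qc was at 3115 and 3872 CPM in the WT lanes and at 3798 CPM (3754 to 3844) in CCR2KO, which lay between the lanes. The log2 ratio of C1qc was 0.19 over both lanes together, 0.29 against lane 1 and -0.03 against lane 2, so its direction depended on the lane. Over all cells the 3 subunits together made up 1.25% of UMIs in WT (1.16% and 1.46% by lane) and 0.840% in CCR2KO. This difference in the total depended on the depth of the cells, as described below.

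C1qb was the 1 member of 7 that was lower in CCR2KO by 2-fold or more, against 3.12% of the 7401 genes with a mean of at least 10 CPM, and 0 members were higher by 2-fold or more, against 9.04% of genes. Only 0.743% of genes had a lower ratio than C1qb, and 7.93% had a lower ratio than C1qa, while C1qc stood at 50.1%. The median log2 ratio of all these genes was 0.18. Median-of-ratios size factors, in place of total UMIs, lowered the ratios of CCR2KO over WT by up to 0.19, which put C1qc at -0.01, Cfp at -0.97, C3ar1 at 0.15 and C5ar1 at 0.24. Between the WT lanes no member differed by 2-fold (0.0405% of genes were higher and 0.838% lower in lane 2 by that much). All 3 subunits were, however, higher in lane 2, by 0.31 (C1qa), 0.38 (C1qb) and 0.31 (C1qc) on the log2 scale. A lower ratio of lane 2 over lane 1 was found for 96.0%, 98.0% and 96.2% of genes, in the same order. The size of the C1qb difference moved with depth: in cells with 2000 to 4000 UMIs, of which there were 713 in WT and 1051 in CCR2KO, the log2 ratio of C1qb was -0.55, that of C1qa -0.28 and that of C1qc 0.66. In these cells C1qb was therefore not lower by 2-fold, and C1qc was higher in CCR2KO.

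**Figure D1:**
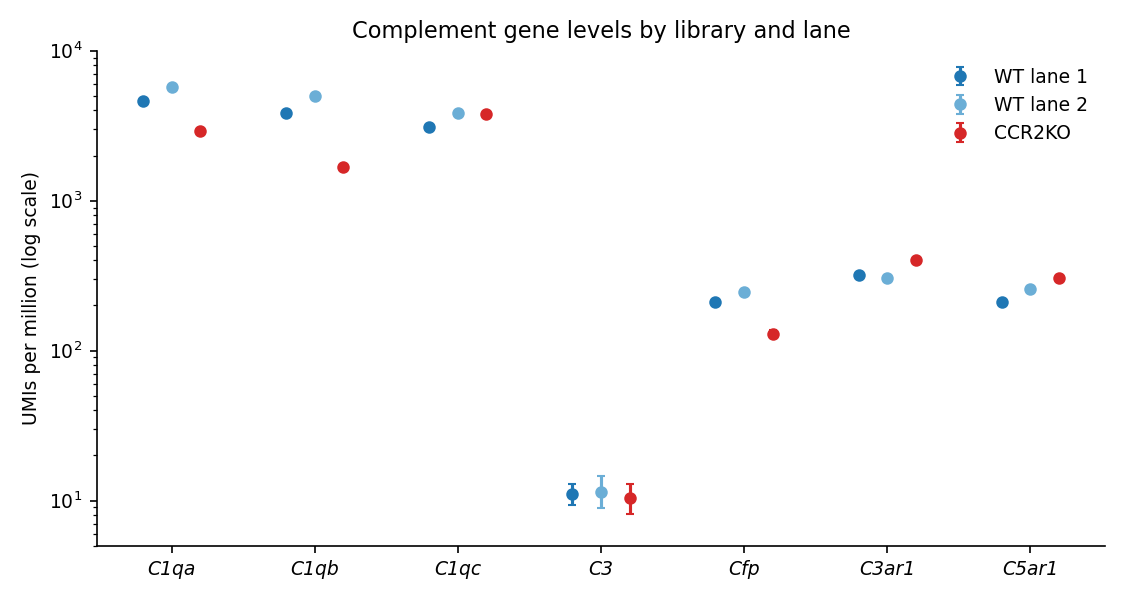
Level of each gene in CPM (log axis) in WT lane 1, WT lane 2 and CCR2KO over all cells that passed the filter; bars are exact Poisson 95% intervals, often smaller than the points. C1qa, C1qb and Cfp lie lower in CCR2KO than in both lanes, C1qc lies between the lanes, and C3ar1 and C5ar1 lie above both.

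Within each library the C1q level also varied with the depth of the cell, and the subunits did so unequally. In WT, C1qb was at 1733 CPM (1636 to 1835) in cells with 1500 to 2500 UMIs, at 2349 CPM (2276 to 2423) in cells with 2500 to 4000 UMIs and at 4121 CPM (4072 to 4170) in cells with 4000 to 8000 UMIs. In CCR2KO the C1qb level in the same depth classes was 1056 CPM (1003 to 1112), 1654 CPM (1602 to 1708) and 2310 CPM (2253 to 2369). C1qb was thus lower in CCR2KO than in WT in all 3 classes and higher with depth in both libraries. C1qc in CCR2KO was nearly level over depth, at 3772, 3919 and 3905 CPM, whereas in WT it was at 2310, 2505 and 3416 CPM. C1qa was at 2806, 2892 and 3073 CPM in CCR2KO and at 3443, 3529 and 5132 CPM in WT. In each of these classes C1qc was higher and C1qa lower in CCR2KO than in WT with both lanes together. At 4000 to 8000 UMIs, however, the CCR2KO level of C1qc lay between the WT lanes, which were at 3203 and 3985 CPM. The total of the 3 subunits in CCR2KO thus lay between the WT lanes at 1500 to 2500 and at 2500 to 4000 UMIs. It lay below both lanes at 4000 to 8000 UMIs.

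The makeup of the C1q UMIs set the libraries apart more clearly than the total. To put the libraries on the same depth, each cell was reduced at random to 1000 UMIs, which left out 1 WT and 196 CCR2KO cells. C1qa gave 40.6% (40.1 to 41.1) of C1q UMIs in WT and 35.8% (35.1 to 36.5) in CCR2KO. C1qb gave 32.3% (31.8 to 32.8) in WT and 17.8% (17.3 to 18.3) in CCR2KO, and C1qc gave 27.1% (26.7 to 27.6) and 46.4% (45.7 to 47.1). The WT lanes lay close together, at 31.6% and 33.6% for C1qb and at 27.4% and 26.5% for C1qc. Expressed as a ratio, C1qc UMIs were 0.868 and 0.789 times the C1qb UMIs in the WT lanes and 2.61 times in CCR2KO. Over all cells, the order of the subunits by UMIs was C1qa, C1qb, C1qc in both WT lanes and C1qc, C1qa, C1qb in CCR2KO. The order of C1qb and C1qc in WT turned in shallower cells: at 2000 to 4000 UMIs they gave 27.3% and 29.9% of C1q UMIs. Without reduction, the ratio of C1qc to C1qb in WT lane 1 was 1.46 at 1500 to 2500 UMIs and 1.14 at 2500 to 4000 UMIs. In WT lane 2 it was 1.16 and 0.938, so there the order turned only in the shallower class. In CCR2KO the ratio was 3.57 and 2.37 in these 2 classes. Counts of transcript ends need no correction for gene length, but capture can differ between genes, so the order within a library is one of UMIs and not of protein chains.

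The makeup went with the original depth of the cell. Among reduced cells that had 2000 to 4000 UMIs originally, C1qb gave 27.3% in WT, against 32.3% over all reduced cells. In CCR2KO these values were 17.5% and 17.8%. The shares that follow are by original depth and without reduction. In CCR2KO the C1qb share of all C1q UMIs was 10.3% in cells with fewer than 1500 UMIs, 13.8% at 1500 to 2500, 19.5% at 2500 to 4000, 24.9% at 4000 to 8000 and 28.1% in the 19 cells with 8000 or more. In WT the same classes gave 18.5% (15 cells, all in lane 2), 23.2%, 28.0%, 32.5% and 35.3%. The C1qb share was lower in CCR2KO in each of the 5 classes, by less than over all cells. The classes bound depth without equalising it: median UMIs per cell were 3279 in WT and 3125 in CCR2KO at 2500 to 4000, and 5880 and 4810 at 4000 to 8000. At 2500 to 4000 UMIs the C1qc share was 29.9% (29.1 to 30.7) in WT and 46.3% (45.6 to 47.0) in CCR2KO, and at 4000 to 8000 UMIs it was 26.96% and 42.0%.

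**Figure D2:**
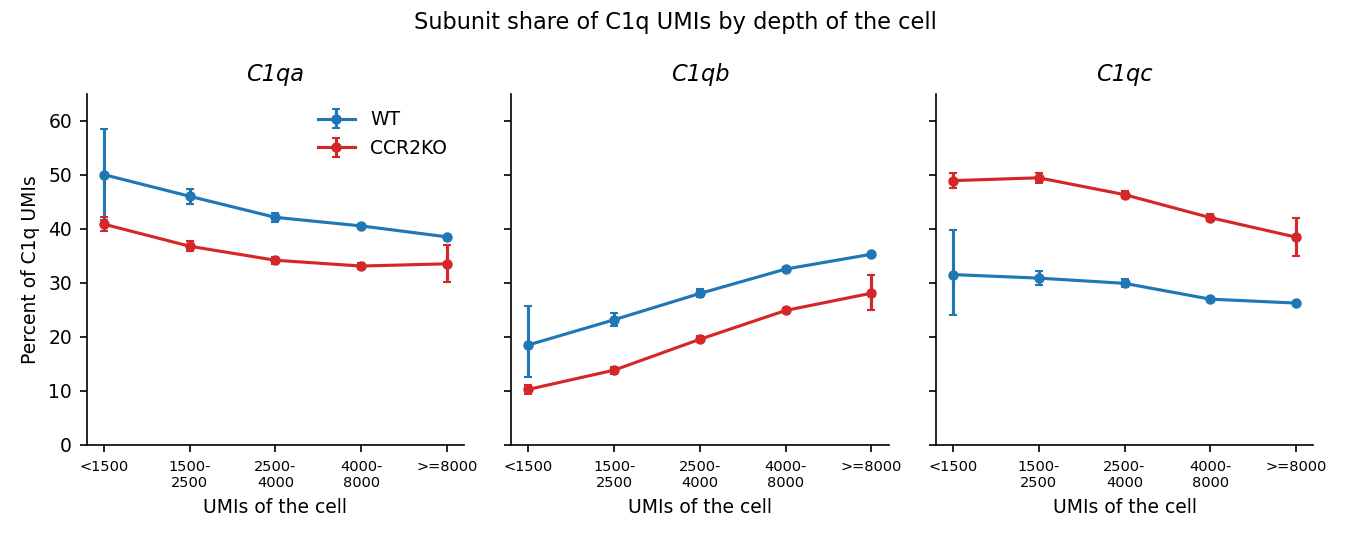
Share of C1qa, C1qb and C1qc among all C1q UMIs (percent, with Clopper-Pearson 95% intervals) in 5 classes of cells by UMIs per cell, in WT and CCR2KO. C1qb gains share with depth in both libraries and stays lower in CCR2KO, and C1qc stays higher in CCR2KO in every class.

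The same contrast in makeup was present across cells of low and high C1q content. Among CCR2KO cells with 1 to 4, 5 to 9, 10 to 14 and 15 or more C1q UMIs per 1000, the C1qb share was 18.4%, 15.9%, 18.3% and 21.6%. In WT these classes gave 25.4%, 27.7%, 32.4% and 34.3%. The shares by marker genes that follow were taken over all UMIs, without reduction. Cells with a UMI of Timd4, a marker of long-lived resident intestinal macrophages, had a C1qb share of 31.5% in WT and 20.5% in CCR2KO. Cells without gave 34.2% and 19.7%. Cells with a Cd4 UMI gave 32.2% and 19.3%, and those with a Cd163 UMI 32.2% and 19.6%. The 545 WT cells with UMIs of both monocyte genes Ccr2 and Plac8 had a C1qb share of 36.9% and the other WT cells 32.97%. In CCR2KO only 10 cells held both, with a C1qb share of 31.6% (25.7 to 38.0), against 19.9% in the other CCR2KO cells. Within this gate the C1qb shares of the libraries thus lay closer together, on 234 C1q UMIs in CCR2KO with 78 in the highest cell. The other subunits stayed apart in the gate. C1qa gave 37.1% in WT and 28.6% in CCR2KO, and C1qc gave 25.9% and 39.7%. The cells with both genes were also deeper. Their median was 8848 UMIs against 5644 in the other WT cells, and 4671 against 2432.5 in CCR2KO. The part of depth in these shares was not tested. The C1qb share was thus lower in CCR2KO than in WT with and without Timd4 UMIs and in cells with a Cd4 or Cd163 UMI.

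Stress and mitochondrial content moved with the makeup as well. Cells of each library were put into 3 equal classes by their share of dissociation stress UMIs, without reduction. From the lowest to the highest class, the C1qb share of C1q UMIs went from 22.9% to 20.3% and 14.6% in CCR2KO. In WT the C1qb share went from 34.0% to 33.8% and 33.2%. By mitochondrial share it went from 22.3% to 19.9% and 17.3% in CCR2KO and from 36.0% to 33.5% and 26.4% in WT. The part of stress, RNA quality, breeding source and library preparation in the difference between the libraries was not tested.

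The difference in makeup was spread over cells. From each cell with enough counts, 10 C1q UMIs were drawn (2869 WT and 2040 CCR2KO cells, which left out more of the shallow CCR2KO cells). C1qc outnumbered C1qb in 39.5% and 36.6% of cells in the WT lanes and in 82.3% (80.6 to 83.9) of CCR2KO cells. None of the 10 UMIs was C1qb in 4.32% of WT and 21.3% of CCR2KO cells, where a single share for all cells would give 2.44% and 14.9%. The variance of the C1qb count over cells was 1.19 times the binomial value in WT (1.16 and 1.27 by lane) and 1.39 times in CCR2KO. The C1qb share thus varied among cells somewhat beyond counting in both libraries. Because the binomial value depends on the mean share, these ratios do not rank the libraries by spread of the share. The bulk of CCR2KO cells lay at a lower C1qb count.

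**Figure D3:**
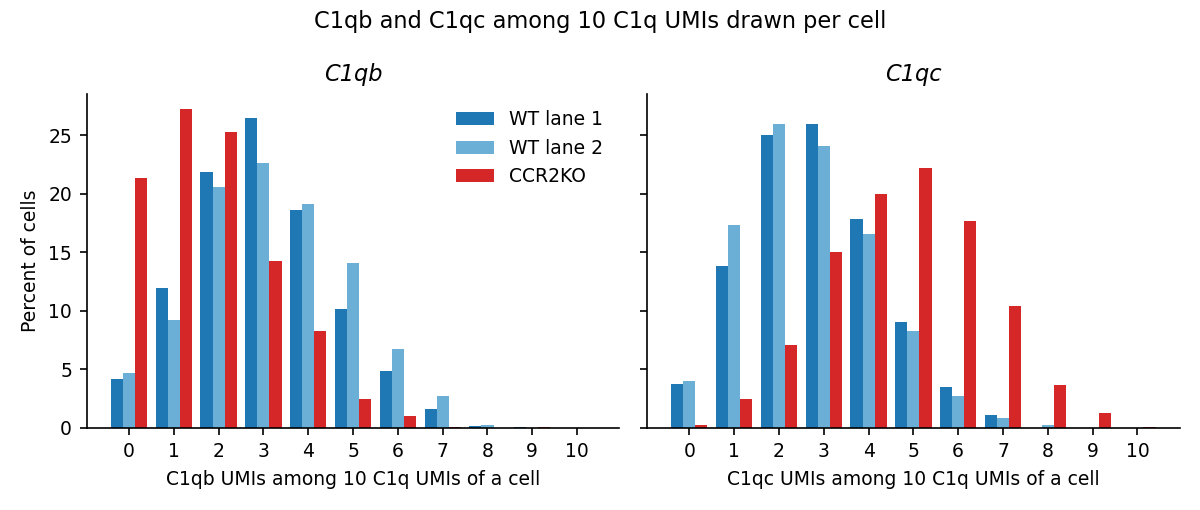
Percent of cells with 0 to 10 C1qb UMIs (left) or C1qc UMIs (right) among 10 C1q UMIs drawn from each cell, in WT lane 1, WT lane 2 and CCR2KO. The WT lanes lie together, while CCR2KO cells have fewer C1qb and more C1qc UMIs, with no C1qb UMI in 21.3% of CCR2KO cells.

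C1q UMIs were found in nearly all sorted cells. At 1000 UMIs per cell the median number of C1q UMIs was 10 and 13 in the WT lanes and 8 in CCR2KO, with a range from the 5th to the 95th percentile of 2 to 24 in WT and 1 to 16 in CCR2KO. These medians are over cells of all original depths, and the C1q total differed less between the libraries in shallower cells. No C1q UMI was found in 1.86% (1.41 to 2.41) of WT and 3.77% (3.04 to 4.60) of CCR2KO cells. UMIs of all 3 subunits were found in 78.9% and 58.4% of cells. By subunit, C1qa was detected in 94.3% and 88.6% of these cells, C1qb in 87.4% and 65.4%, and C1qc in 89.9% and 92.6%. Without reduction the C1qb values were 97.8% in WT and 78.9% in CCR2KO. As a background for such shares, cells with lymphoid markers and at most 1 macrophage gene, which should lack C1q, held C1q at 823 CPM (579 to 1134) in 10 WT cells of median 3546 UMIs and at 504 CPM (363 to 681) in 30 CCR2KO cells of median 2184.5 UMIs. At least 1 C1q UMI was present in 8 of those 10 and 17 of those 30 cells. Whether these UMIs came from free RNA or from doublets was not tested. The C1q levels of the libraries, 12472 CPM in WT and 8395 CPM in CCR2KO, lay well above this background.

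**Figure D4:**
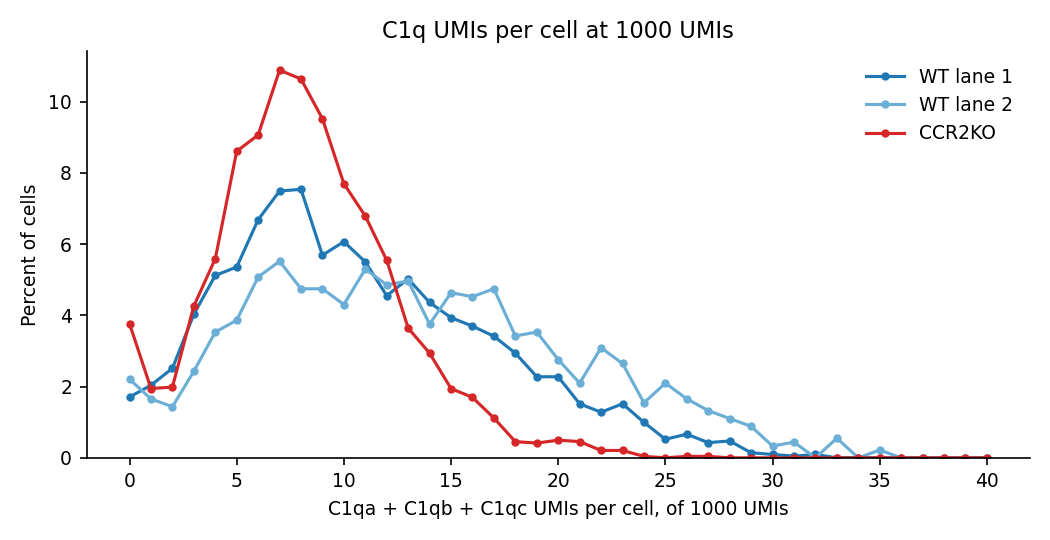
Percent of cells by the number of C1qa, C1qb and C1qc UMIs together among 1000 UMIs per cell, in WT lane 1, WT lane 2 and CCR2KO. The CCR2KO distribution is narrower, with a median of 8, and the WT lanes extend further to the right, with medians of 10 and 13.

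Over single cells the subunit counts correlated more in WT than in CCR2KO. At 1000 UMIs per cell, the Spearman correlation of C1qa with C1qb was 0.48 and 0.57 in the WT lanes (2109 and 906 cells) and 0.15 in CCR2KO (2416 cells). The correlation of C1qa with C1qc was 0.40 and 0.49 in the lanes and 0.27 in CCR2KO, and that of C1qb with C1qc was 0.40 and 0.50 against 0.15. The mean of the 3 pairs in CCR2KO, 0.19 over all cells, was 0.12 in macrophage-like cells and 0.12 in the 2325 cells with a C1q UMI, where the lanes gave 0.40 and 0.49. These are descriptions over cells that share a library, and their size depended on the number of UMIs kept: the mean of the 3 pairs was 0.43, 0.52 and 0.19 at 1000 UMIs and 0.60, 0.64 and 0.30 at 2000 UMIs. The spread of C1q content was also larger in WT, with a variance of the C1q sum of 3.57 and 4.13 times its mean in the lanes and 2.18 times in CCR2KO. In cells with 2000 to 4000 UMIs originally, the mean correlation was 0.26 and 0.34 in the lanes and 0.15 in CCR2KO, so part of the gap went with original depth.

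C3 was at a low level in both libraries. It was at 10.98 and 11.5 CPM in the WT lanes and 10.3 CPM (8.12 to 12.9) in CCR2KO, from 230 and 75 UMIs, with a log2 ratio of -0.10 (-0.50 to 0.27). The cells behind these sums differed. In WT, 161 cells held C3, with 7 UMIs in the highest, while in CCR2KO 42 cells held it and 24 of the 75 UMIs were in a single cell. Of the CCR2KO UMIs, 33 were in the 19 cells with at least 3 fibroblast markers, against 6 of 230 in 4 such WT cells. In macrophage-like cells C3 was at 11.2 CPM (9.76 to 12.8) in WT and at 5.91 CPM (4.22 to 8.05) in CCR2KO, and without the cells carrying fibroblast markers its log2 ratio was -0.79.

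Cfp, which encodes properdin, was lower in CCR2KO. Its level was 211 and 246 CPM in the WT lanes and 129 CPM (120 to 137) in CCR2KO, below both lanes, with a log2 ratio of -0.78 (-0.89 to -0.68). A lower ratio was found for 7.32% of genes. At 1000 UMIs, Cfp was detected in 17.1% of WT and 10.6% of CCR2KO cells. In cells with 2000 to 4000 UMIs the log2 ratio was -0.37, a smaller difference in the same direction.

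Over all cells both anaphylatoxin receptor genes were somewhat higher in CCR2KO. C3ar1 was at 322 and 305 CPM in the WT lanes and at 400.4 CPM (386 to 415) in CCR2KO, with a log2 ratio of 0.34 (0.27 to 0.40). C5ar1 was at 212 and 258 CPM in the lanes and at 305 CPM (292 to 318) in CCR2KO, with a log2 ratio of 0.43 (0.36 to 0.51). The CCR2KO levels lay above both lanes, but the C5ar1 lanes themselves differed by 0.28 on the log2 scale. The difference varied with the depth of the cell, taken as 1500 to 2500, 2500 to 4000 and 4000 to 8000 UMIs. In these classes C3ar1 was at 450, 421 and 375 CPM in CCR2KO and at 350, 385 and 370 CPM in WT. C5ar1 was at 322, 328 and 275 CPM in CCR2KO and at 216, 235 and 251 CPM in WT. In the deepest of these classes both CCR2KO levels lay between the WT lanes (376 and 352 CPM for C3ar1, 230 and 308 CPM for C5ar1). Against the median of all genes, 0.18, the differences over all cells are small. A lower ratio than that of C3ar1 was found for 60.6% of genes, and than that of C5ar1 for 66.8%. Among cells with no UMI of the monocyte genes Ccr2, Plac8 and Ly6c2 (1370 WT and 2357 CCR2KO cells), the log2 ratio was 0.056 for C3ar1 and 0.18 for C5ar1. In the lymphoid cells C3, Cfp, C3ar1 and C5ar1 had at most 1 UMI each in either library.

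By UMIs, C3ar1 ranked first among these 4 genes in both libraries and C3 last. In WT, Cfp at 221 CPM (215 to 228) and C5ar1 at 225 CPM (219 to 232) did not differ beyond counting error. In CCR2KO, C5ar1 was above Cfp.

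To relate these genes to C1q, the cells of each library were ordered by C1q share and divided into 5 equal classes, with levels given as CPM of the UMIs other than C1q. In WT, Cfp, C3ar1 and C5ar1 were higher in cells with more C1q. Cfp was at 144 in the lowest class and 309 in the highest, a 2.14-fold difference (1.93 to 2.38). C5ar1 was at 124, 200.2, 193, 235 and 340 from the lowest to the highest class, a 2.74-fold difference (2.46 to 3.06). C3ar1 was at 215, 334, 304, 329 and 390, a 1.82-fold difference (1.67 to 1.99). Both lanes gave the same direction for these 3 genes, from 1.83-fold to 3.05-fold.

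In CCR2KO, Cfp was also higher in cells with more C1q, and C3ar1 and C5ar1 were level above the lowest class. Cfp was at 86.9, 123, 123, 135 and 169.98 CPM, a 1.96-fold difference (1.57 to 2.45). C3ar1 was at 273 in the lowest class and between 421 and 460 in the other 4, and C5ar1 was at 211 and then between 312 and 336. The lowest CCR2KO class was 76.3% macrophage-like cells, against 97.1% or more in the other 4. Restricted to macrophage-like cells, the log2 difference between the highest and lowest CCR2KO class was 0.58 for Cfp, 0.15 for C3ar1 and 0.092 for C5ar1, while in WT it was 0.70 for C3ar1. C3 went the other way, from 17.2 to 5.72 in WT and from 30.8 to 3.62 in CCR2KO, on 75 UMIs in all in CCR2KO, of which 33 were in cells with fibroblast markers. In macrophage-like cells the log2 difference of C3 over the CCR2KO classes was -0.95, against -3.09 in all cells. In WT lane 2 C3 was highest in the middle class, at 19.5 CPM, and the highest over the lowest class was 0.372 (0.0958 to 1.29). In WT, cells with less C1q also held more of the monocyte genes: Ccr2 went from 592 to 136 over the classes and Plac8 from 716 to 49.0. In CCR2KO, Plac8 was high in the lowest class only, at 455, and then at 38.3, 32.1, 52.4 and 35.6. Ccr2 was at 16.9 in that lowest class. Median UMIs per cell were 4172.5 in the lowest and 7905 in the highest WT class. The part of monocyte content and depth in these trends was not tested. In cells with 2000 to 4000 UMIs the WT log2 differences were 0.86 for Cfp, 1.12 for C3ar1 and 1.13 for C5ar1.

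**Figure D5:**
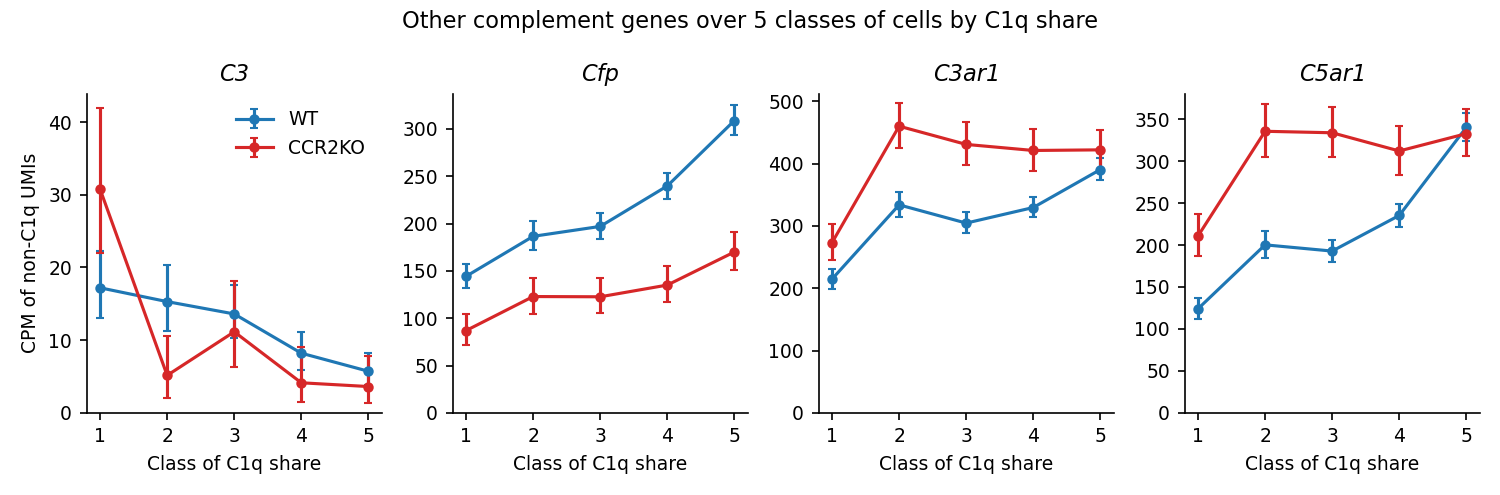
Levels of C3, Cfp, C3ar1 and C5ar1 in CPM of non-C1q UMIs (Poisson 95% intervals) in 5 equal classes of cells by C1q share, lowest to highest, in WT and CCR2KO. Cfp is higher with C1q share in both libraries, C3ar1 and C5ar1 are level in CCR2KO above the lowest class, and C3 is highest in the lowest class.

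The wider complement system was sparse in these cells. Of a list of 46 further pathway genes, 45 were in the matrices (C4a was not analysed here), 11 had no UMI in either library (which allows up to 0.145 CPM in WT and 0.413 CPM in CCR2KO, 3 counts each), and 14 had a mean of at least 10 CPM. Of the 14, 10 were higher and 4 lower in CCR2KO (62.3% of all genes were higher), with a median log2 ratio of 0.52 against 0.18 for all genes, and 4 were higher by 2-fold or more (9.04% of all genes were) and 0 lower. They included C2, which is cleaved by the C1 complex, at 7.11 CPM in WT and 28.4 CPM in CCR2KO; C4b, the gene of its partner C4, at 7.496 and 38.8 CPM; and Serping1, the C1 inhibitor, at 3.00 and 23.4 CPM. In macrophage-like cells C2 was at 7.002 and 29.1 CPM and C4b at 7.47 and 38.3 CPM, whereas Serping1 was at 1.45 and 4.43 CPM, and so most of its CCR2KO UMIs were in other cells.

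The remaining groups of the pathway were described by their most abundant genes. C1ra, a protease of the C1 complex, was at 3.82 CPM in WT and 6.06 CPM in CCR2KO. In the lectin pathway only the ficolin gene Fcna had more than a few UMIs, at 1.64 and 14.3 CPM. Factor B (Cfb) was at 9.91 and 7.29 CPM, and factor D (Cfd) had 0 and 1 UMI. C6 was the only terminal component with more than a few UMIs, at 126 and 227 CPM. Among membrane inhibitors, Cr1l was at 47.7 and 34.7 CPM, Cd55 at 1.26 and 3.85 CPM and Cd46 at 1.74 and 1.24 CPM. The integrin subunit genes of the complement receptors CR3 and CR4 were Itgam at 202 and 189 CPM, Itgax at 147 and 191 CPM and their shared chain Itgb2 at 101 and 105 CPM. Of proteins that bind C1q at the cell surface, calreticulin (Calr) was at 782 and 491 CPM, Cd93 at 172 and 189 CPM and Lrp1 at 43.2 and 69.8 CPM.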

How the data were processed

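Single-cell suspensions were profiled with the 10x Genomics 3' v2 protocol, 1 library per genotype. The WT barcodes carry 2 suffixes, which are called lanes here. Whether the lanes held the same cell preparation was not tested. The deposited matrices hold UMI counts per gene and cell, not normalised. The submitters' processing notes name Cell Ranger 3.0.1 and mm10; annotation and cell calling were not given in the sources used here. Gene identifiers were matched to GENCODE M21 (98.7% of 27998).

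Cells under 200 genes or above 10% mitochondrial UMIs were left out (38 WT and 162 CCR2KO cells), for 20678108 WT and 7265386 CCR2KO UMIs. Doublets were kept in the main values, and Scrublet (scanpy 1.11.5) served in an alternative that removed 43 WT and 55 CCR2KO cells. Counts were summed over cells per library and lane and scaled to CPM. Log2 ratios used a pseudocount of 1 CPM, and ratios across genes a mean of at least 10 CPM. The main makeup values, the classes by C1q UMIs per 1000, and the correlations of the subunits and with the C1q sum used cells reduced without replacement to 1000 UMIs (seed 1). Shares by depth class, by marker genes and by stress or mitochondrial class used all UMIs, without reduction. Cells are not replicates, so no test of genotype was run. Code was tested on simulated data (numpy 2.4.6, scipy 1.17.1).

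The members, lists and marker genes were chosen with earlier results of these data known. Named were the 7 members, wider-list genes past 2-fold and the 3 highest of each group, and the 10 genes most and 5 least like the C1q sum. Of the wider-list genes past 2-fold, 1 is not reported here. The thresholds of the marker gates, the splits by depth, and the alternatives for fibroblast markers and for makeup and correlation at 2000 to 4000 UMIs were set after seeing the data.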

Additional observations from a re-analysis of the deposited data

How the results depend on the processing

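No paired analysis was possible because each genotype has 1 library. Log2 ratios of C1qa, C1qb and C1qc were -0.70, -1.27 and 0.24 in macrophage-like cells, -0.66, -1.20 and 0.29 against WT lane 1, -0.97, -1.58 and -0.028 against lane 2, -0.95, -1.52 and -0.0052 with median-of-ratios size factors, -0.28, -0.55 and 0.66 in cells with 2000 to 4000 UMIs, and -0.96, -1.45 and -0.022 in cells with no UMI of Ccr2, Plac8 or Ly6c2. The stricter cell filter (500 genes, 5% mitochondrial) gave -0.80 for C1qa and 0.12 for C1qc. C1qc thus changed sign under 3 settings and C1qb stayed negative under all. Cfp, C3ar1 and C5ar1 were at -0.97, 0.15 and 0.24 with size factors, at -0.37, 0.23 and 0.53 at 2000 to 4000 UMIs, and at -0.89, 0.056 and 0.18 without the monocyte genes; against lane 2 Cfp was at -0.93 and C5ar1 at 0.24, and against lane 1 C5ar1 was at 0.52. C3 had 0.035 with the stricter filter, 0.26 without the monocyte genes, -0.82 in macrophage-like cells, -0.53 at 2000 to 4000 UMIs and -0.79 with fewer than 3 fibroblast genes.

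The C1qa, C1qb and C1qc shares in WT were 42.8%, 27.3% and 29.9% at 2000 to 4000 UMIs and 39.7%, 33.8% and 26.5% with the stricter filter; without reduction C1qa and C1qb gave 39.5% and 33.7%, and another seed gave 27.7% for C1qc. In CCR2KO they were 34.0%, 20.3% and 45.7% at 2000 UMIs per cell and 34.8%, 19.99% and 45.2% without reduction; C1qb was 18.4% with the stricter filter and C1qc 47.3% at 2000 to 4000 UMIs. Mean subunit correlations in lane 1, lane 2 and CCR2KO were 0.60, 0.64 and 0.30 at 2000 UMIs per cell and 0.91, 0.93 and 0.69 without reduction; at 2000 to 4000 UMIs the lanes gave 0.26 and 0.34, and macrophage-like CCR2KO cells gave 0.12.

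Log2 differences between the highest and lowest C1q class in WT were 0.76, 0.56 and 1.07 for Cfp, C3ar1 and C5ar1 with 3 classes, 1.33, 1.71 and 1.94 with 10 classes, and 0.86, 1.12 and 1.13 at 2000 to 4000 UMIs, where C3 gave -2.43; C3ar1 gave 0.70 in macrophage-like cells. In CCR2KO, C3ar1 and C5ar1 gave 0.26 and 0.28 with 3 classes, 1.57 and 1.58 with 10, 0.088 and 0.34 at 2000 to 4000 UMIs and 0.15 and 0.092 in macrophage-like cells. Cfp in CCR2KO gave 1.70 with 10 classes and 0.58 in macrophage-like cells, where C3 gave -0.95; C3 in CCR2KO at 2000 to 4000 UMIs had no UMI in 1 class and gives no value. Of the wider list, 9 genes were higher by 2-fold with no minimum level and 1 with a minimum of 50 CPM, and 1 was lower with size factors. The cause of these moves was not tested. Lower depth in CCR2KO limits shares of cells with a UMI, and C3 rests on few UMIs.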

Other observations

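The genes that varied over cells most like C1q were described by the mean Spearman correlation with the C1q sum over WT lane 1, WT lane 2 and CCR2KO, at 1000 UMIs per cell and over the 1322 genes with a mean of at least 100 CPM; the values describe cells of shared libraries. The 10 highest were Apoe (0.57), the lipid carrier gene, then the MHC class II genes Cd74 (0.51), H2-Ab1 (0.44), H2-Aa (0.37) and H2-Eb1 (0.36), then Ftl1 (0.36), Lyz2 (0.33), Fcer1g (0.27), Itm2b (0.26) and Cd81 (0.25). For Apoe the values in lane 1, lane 2 and CCR2KO were 0.66, 0.71 and 0.35, and for Cd74 they were 0.59, 0.65 and 0.30. The 5 lowest were Rpl37a (-0.35), Rpl41 (-0.31), mt-Co1 (-0.27), Rps28 (-0.25) and mt-Co3 (-0.23). These means came almost wholly from the WT lanes. In CCR2KO the 5 genes were at -0.015, -0.0090, -0.055, -0.0015 and -0.020, while Rpl37a was at -0.48 and -0.55 in the lanes. The sort required MHCII, and the genes named are abundant; the part of abundance in these values was not tested.

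Apoe and Cd74 were also among the genes that went with the C1qb share of a cell's C1q UMIs, with mean correlations of 0.23 and 0.29 (2022, 847 and 1994 cells), and Ftl1 gave 0.26. In CCR2KO these were 0.38, 0.37 and 0.37. Psap (-0.30), mt-Co1 (-0.24) and Marcks (-0.22) went against it. Original depth of the cell moves with the C1qb share as well, and its part in these values was not tested.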
